A study of Drosophila melanogaster with 48 samples.

Results

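The mitochondrial ribosomal protein genes were described across 3 stages of wing development in Drosophila melanogaster, with and without a Ubx transgene. The members were all genes whose annotated symbol begins with mRpL or mRpS followed by a digit, each read from the 1 probe set whose mean over the 48 arrays was highest. The rule found 69 of 11982 named genes, of which 44 carried a large subunit name (mRpL) and 25 a small subunit name (mRpS). The rule itself uses names and mean levels, not measured differences, but it was chosen with earlier results of these data known.

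Mitochondria keep their own ribosomes, which translate the few messages encoded by mitochondrial DNA, in animals all for subunits of the oxidative phosphorylation complexes. The ribosomal RNAs come from mitochondrial DNA, whereas every protein of these ribosomes is encoded in the nucleus, made in the cytoplasm and imported. The small subunit decodes the message and the large subunit joins the amino acids. A few members carry names that differ from their place: the mammalian counterparts of mRpS30 and mRpS18A lie in the large subunit.

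RNA was measured on 48 Affymetrix arrays in 12 groups of 4 biological replicates, each a pool of about 15 to 20 animals. All animals were w and carried nabGal4NP3537, a Gal4 driver inserted in nab, with Tub-Gal80ts, a temperature-sensitive repressor of Gal4; the experimental line also carried UAS-UbxIa/+ and the control line UAS-eGFP/+. Animals kept only at 19 °C had the transgene off, and animals moved to 29 °C for 16 h had it on, in cells that express nab. Whole wing discs came from larvae at the wandering stage of the last instar, chosen for the colour of their gut. Counted from puparium formation, prepupal wings were dissected at 12.5 h (19 °C) or 6 h (29 °C) and pupal wings at 33.5 h (19 °C) or 16 h (29 °C). Since tissue was sampled in bulk, fewer cells of a type and less RNA per cell cannot be told apart.

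Values are log2 values from RMA, an array normalisation and summary method. The 8 arrays of each stage and temperature had nearly the same distribution of values (quantiles at most 0.134 apart), and the 6 such sets differed from each other by at least 0.243. Ubx and eGFP arrays that were compared lay in the same set, whereas comparisons of stages or temperatures crossed sets, so that set and condition cannot be told apart there; 2 other scalings, a quantile normalisation over all arrays and a centring of each array on its median, are therefore set beside the members' counts and medians in these comparisons. All 5 wing markers (vg, nub, ap, rn, bs) were present in every group, the lowest group mean being 6.97 for rn. Replicates correlated at 0.995 or above. In larvae at 29 °C, eGFP replicate 3 had a mean of 9.19 over 5 fat body markers, against 4.88 to 5.50 on the other 3 arrays. The level of Ubx itself was not analysed here, so the labels were not checked against the transgene.

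Every member was well measured: the lowest group mean of any member lay 1.53 above the highest array median, on the log2 scale. Mean values over all arrays ran from 7.22 for mRpL40 to 10.25 for mRpL33, a range that includes differences between probes. The members moved together. Over the 12 group means, 2345 of 2346 pairs of members had a correlation above 0. The median Pearson r was 0.93 and the lowest -0.01, as a description of groups that share 6 normalisation sets. The same figures for pairs of other genes are not given here, so this is not shown to be particular to the members. From larva to prepupa at 19 °C, 69.7% of the probe sets with a mean above the median probe set fell too. Closest to the mean profile of the other members was mRpL36 (r = 0.996), and farthest were mRpS5 (0.38), mRpS17 (0.49), mRpS31 (0.63) and mRpL28 (0.64). The standard deviation of the group means was largest for mRpL15 (0.94), mRpL35 (0.94) and mRpL23 (0.93), and smallest for mRpL22 (0.419), mRpS9 (0.420) and mRpS5 (0.46).

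**Figure D1:**
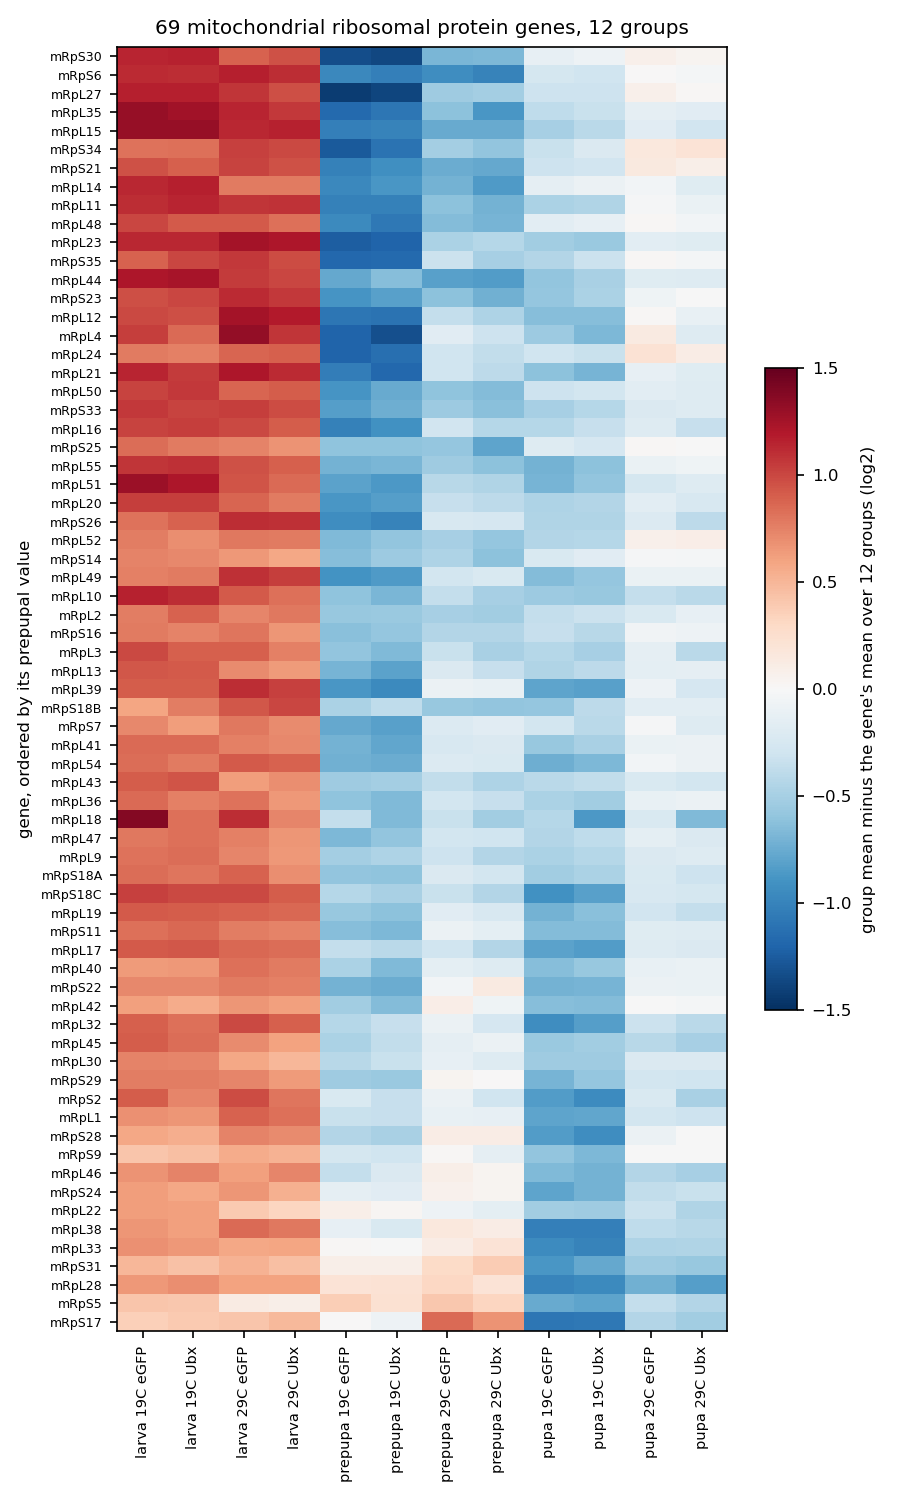
Group means of the 69 members (rows) in the 12 groups (columns), as log2 differences from each member's mean over the groups, ordered by the prepupal value. The larval columns are high for nearly all rows, and the bottom rows, mRpS5 and mRpS17 among them, are not low in prepupae.

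The first comparison asked how the genes change as the larval disc becomes the prepupal wing, in the eGFP line. The genes fell almost as a block. At 19 °C, 68 of 69 members were lower in prepupae and 0 were higher, where 59.3% of all probe sets were lower and 75.7% changed in either direction. The median difference of the members was -1.49, a 2.81-fold fall, against -0.26 over all probe sets and -0.84 over the probe sets with a mean above the median probe set, of which 69.7% were lower.

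The fall was deepest for mRpL27, whose bacterial counterpart reaches into the peptidyl transferase centre. Its log2 values at 19 °C were 9.79, 9.76, 9.87 and 9.79 in larvae and 7.27, 7.27, 7.20 and 7.12 in prepupae. No prepupal array came near the larval ones. The difference was -2.59 (SE 0.06, limma adjusted p = 5.49e-35), a 6.02-fold fall, and -1.50 after quantile normalisation over all arrays. Next came mRpL35 (-2.47), mRpS30 (-2.47) and mRpL23 (-2.36), the last a protein that borders the exit tunnel in bacterial ribosomes.

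At the other end stood mRpS5, whose bacterial counterpart takes part in accurate decoding. Its values at 19 °C were 10.58, 10.50, 10.48 and 10.52 in larvae and 10.50, 10.44, 10.39 and 10.57 in prepupae. These ranges overlapped, and the difference of -0.05 was the only one among the members that did not pass the test (adjusted p = 0.508). mRpS17, named for a protein that binds ribosomal RNA in bacteria, had a difference of -0.35, mRpS31 of -0.41 and mRpL28 of -0.45, but for mRpS5, mRpS17, mRpS31 and mRpL28 the quantile normalisation over all arrays turned the sign.

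The size of the fall depended on the scaling. With quantile normalisation over all arrays the median at 19 °C was -0.52, with 53 members lower and 9 higher, and 12 members changed sign. With centring it was -1.46, with 68 lower. In all 3 scalings 53 members were lower.

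At 29 °C, 67 members were lower in prepupae and 2 were higher, where 37.6% of all probe sets were lower and 72.3% changed in either direction. Of the probe sets with a mean above the median probe set, 63.3% were lower. The members' median was -1.20, a 2.29-fold fall, against 0.01 over all probe sets. It was -0.53 with quantile normalisation and -1.48 with centring, against -0.04 and -0.28 over all probe sets. In all 3 scalings 56 members were lower. The deepest fall was that of mRpS6 (-2.11). mRpS17 rose: its values were 8.89, 8.77, 8.76 and 8.84 in larvae and 9.27, 9.21, 9.25 and 9.26 in prepupae, ranges that did not overlap. Its difference was 0.43 (adjusted p = 1.16e-09). mRpS5 was higher by 0.28 (adjusted p = 9.39e-05), a difference that centring brought to -0.0013.

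**Figure D2:**
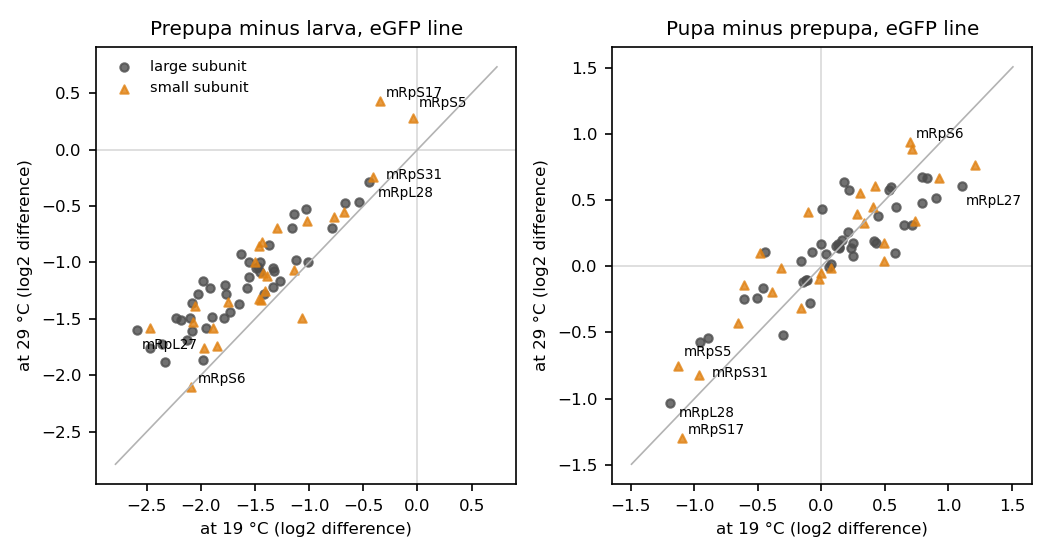
Log2 differences between stages in the eGFP line for the 69 members, at 19 °C (horizontal) and 29 °C (vertical), with the line of equal values. Prepupa minus larva (left) is below 0 for most members at both temperatures, with mRpS17 and mRpS5 above 0 at 29 °C; pupa minus prepupa (right) spreads to both sides of 0.

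The 2 temperatures share no array, and across the 69 members their prepupa minus larva differences had a Pearson r of 0.885. The Ubx line gave medians of -1.48 at 19 °C (-0.48 with quantile normalisation, -1.45 with centring) and -1.20 at 29 °C (-0.58 and -1.47), with an r across members of 0.989 and 0.981 with the eGFP line. Of the members lower at 29 °C, all 67 were also lower at 19 °C. Since 68 of 69 members were lower at 19 °C, nearly all of this overlap was fixed beforehand.

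Other genes of mitochondrial gene expression were lower as well. In this comparison 59.3% of all probe sets were lower, and 69.7% of those with a mean above the median probe set. The import and oxidative phosphorylation counts below lay near the second share. At 19 °C, 23 of 24 mitochondrial translation factor and aminoacyl-tRNA synthetase genes were lower and 1 was higher, with a median of -2.03 (-1.47 with quantile normalisation; centring gave the same counts); among them mEFG1, an elongation factor, had a difference of -2.99 and AsnRS-m one of -3.93. From a longer list of genes for the upkeep and transcription of mitochondrial DNA, all 9 that were measured were lower. Their median was -2.13, and -1.02 and -2.10 under the other scalings. Among them mtSSB, the single-strand DNA binding protein, was at -3.50 and TFAM, which packages the DNA, at -2.29. Of 13 import genes 10 were lower (median -0.75, and -0.38 and -0.72). The 74 oxidative phosphorylation genes had a median of -0.47, with 57 lower and 5 higher, but the median was -0.04 with quantile normalisation and -0.44 with centring. The 41 cytoplasmic ribosomal protein genes had a median of -0.06 (-0.08 and -0.03 under the other scalings), with 19 lower and 3 higher, the most significant being RpLP0-like (-3.33), RpL7-like and RpL24-like, which carry ribosomal names only by similarity. The small subunit genes tko and bonsai, which the naming rule does not reach, had differences of -1.37 and -1.55.

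Markers of other cells moved between the same stages. Of 6 myoblast and muscle markers 3 were measured, and all 3 fell at 19 °C, with differences of -4.93 for htl, -4.60 for Him and -3.95 for twi. The mean of these 3 was 7.88 to 8.28 on larval arrays and at most 4.04 on later ones. Of 3 tracheal markers 2 rose and 1 fell, of 6 haemocyte markers 3 rose and 3 fell, and of 4 neuron and glia markers 2 rose and 1 fell. Over the tracheal markers the mean on eGFP arrays at 19 °C was 9.21 to 9.28 in larvae and 10.75 to 10.85 in prepupae. Over 5 fat body markers it was 5.05 to 5.62 and 5.88 to 6.85, over the haemocyte markers 6.48 to 6.88 and 5.73 to 5.81, and over the neuron and glia markers 5.27 to 5.42 and 5.23 to 5.42. The part of these cells in the result was not tested.

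From prepupa to pupa the genes divided. At 19 °C, 36 members rose, 21 fell and 12 did not pass the test, where 88.1% of all probe sets changed, 24.1% upward and 64% downward. Of the probe sets with a mean above the median probe set, 44.4% rose and 43% fell. The members' median was 0.14, against -0.32 over all probe sets and 0.01 over those with a mean above the median probe set. The cytoplasmic ribosomal protein genes had a median of -0.61 (-0.04 with quantile normalisation, -0.20 with centring) and the oxidative phosphorylation genes one of -0.39, which was -0.11 with quantile normalisation and turned to 0.02 with centring. The split between rises and falls moved with the scaling: 29 rose and 25 fell with quantile normalisation (median 0.01), and 53 rose and 9 fell with centring (median 0.55). All 5 fat body markers rose (median 2.89 at 19 °C and 3.49 at 29 °C) and all 3 tracheal markers fell (median -5.95 and -5.49); their part in the result was not tested.

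mRpL27 rose again, to 8.31, 8.23, 8.30 and 8.44 in pupae, above every prepupal array and below every larval one. Its difference was 1.11, and that of mRpS30 was 1.21. The members that had fallen least now fell most. mRpL28 had values of 9.83, 9.74, 9.84 and 9.76 in prepupae and 8.65, 8.52, 8.59 and 8.63 in pupae, without overlap. Its difference was -1.19 (SE 0.05, adjusted p = 1.26e-23). Falls followed for mRpS5 (-1.13), mRpS17 (-1.10), mRpS31 (-0.96) and mRpL33 (-0.96), and these 5 members were lower under all 3 scalings. The earlier and the later difference share the prepupal arrays, so that they are not independent.

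At 29 °C, 38 members rose and 18 fell, where 85.2% of all probe sets changed, 26.7% upward and 58.5% downward. Of the probe sets with a mean above the median probe set, 48.7% rose and 37.3% fell. The members' median was 0.15. The majority turned with quantile normalisation, with 24 higher and 29 lower (median -0.06), and with centring 59 were higher and 6 lower (median 0.53). The largest falls were again those of mRpS17 (-1.30), mRpL28 (-1.03), mRpS31 (-0.82) and mRpS5 (-0.76), and the largest rises those of mRpS6 (0.94) and mRpS21 (0.89). Both temperatures shared 34 members that rose, of 36 at 19 °C and 38 at 29 °C, and 16 that fell, of 21 and 18. The share of all probe sets that moved alike at both temperatures is not given here. From larva to pupa directly, the members' median difference was -1.42 at 19 °C, with single differences from -1.97 to -0.98, and -1.03 at 29 °C, with single differences from -1.41 to -0.47. Over all probe sets these medians were -0.64 and -0.30. All 69 members lay below 0 under all 3 scalings. At 19 °C and 29 °C their medians were -0.48 and -0.57 after quantile normalisation and -0.97 and -0.93 after centring. Over all probe sets these were -0.03 and -0.05 after quantile normalisation and -0.19 and -0.20 after centring.

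**Figure D3:**
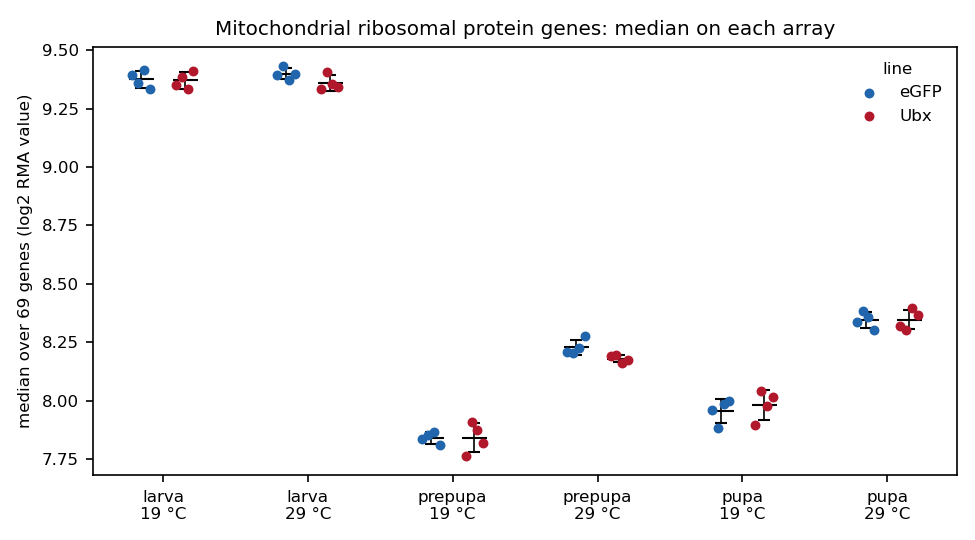
Median log2 value of the 69 members on each array (points), with the mean and SD of each group of 4 (bars), for the eGFP and Ubx lines. Larval arrays lie above 9.3 and prepupal and pupal arrays at 8.40 or below. At 29 °C in prepupae the Ubx arrays (8.16 to 8.19) lie just below the eGFP arrays (8.20 to 8.28). In every other stage and temperature the lines overlap. Taken above each array's median, these prepupal group means are 3.44 (SD 0.04) with Ubx and 3.47 (SD 0.03) with eGFP.

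The temperature comparison in the eGFP line also crosses sets, and hours after puparium formation differ with it. In larvae 15 members were higher and 16 lower at 29 °C, where 63.9% of all probe sets changed, 4.41% upward and 59.5% downward. Of the probe sets with a mean above the median probe set, 7.49% were higher and 55.2% lower. With quantile normalisation 43 members were higher and 1 lower, and with centring 38 and 1. The larval median was -0.04, against 0.21 and 0.15 under the other scalings, so that its direction flips. Over all probe sets the larval median was -0.21, against 0.0008 and -0.02. The members' median thus lay above that of all probe sets under all 3 scalings. In prepupae 57 members were higher and 1, mRpL22 (-0.17), was lower, where 55.7% of all probe sets changed and 38.1% were higher. Of those with a mean above the median probe set, 49.8% were higher and 24% lower. The members' median was 0.33, against 0.09 over all probe sets. With quantile normalisation 38 were higher and 6 lower (median 0.15), and with centring 45 and 3 (median 0.20). In pupae 67 members were higher and 0 lower, where 51.7% of all probe sets changed and 46% were higher. Of those with a mean above the median probe set, 61.5% were higher. By limma at an unadjusted p under 0.05, 68 members were higher and 0 lower. The members' pupal median was 0.41, against 0.15 over all probe sets. With quantile normalisation 34 were higher and 3 lower (median 0.15), with 18 members changing sign, and with centring 46 and 0 (median 0.26). mRpL4, whose bacterial counterpart borders the exit tunnel, was higher at 29 °C by 1.02 in prepupae (0.81 and 0.90 under the other scalings) and 0.69 in pupae (0.43 and 0.53). Between the same larval groups all 6 haemocyte markers (median -0.83), all 3 tracheal markers (-0.53) and all 5 wing markers (-0.48) were lower at 29 °C, and in pupae all 5 wing markers were higher (0.41); their part in the result was not tested.

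The main comparison of the study asked what Ubx does in the wing, by setting Ubx against eGFP at 29 °C. The differences were small, at most 0.43 on the log2 scale, and mostly towards lower values with Ubx. In larvae 3 of 69 members were lower and 0 higher (4.35%), where 2.77% of all probe sets were called and 1.39% were lower. In prepupae 8 were lower and 1 higher (13%), where 14.2% were called and 6.21% were lower. In pupae 7 were lower and 0 higher (10.1%), where 8.89% were called and 4.53% were lower. Among the probe sets with a mean above the median probe set, 4.99%, 25.5% and 15.1% were called in the 3 stages, so that the members' total counts were near or below this background. By limma at an unadjusted p under 0.05, 11 members were lower and 0 higher in larvae, 20 and 2 in prepupae, and 12 and 1 in pupae. At 19 °C these lower and higher counts were 4 and 3, 7 and 7, and 3 and 7. The share of all probe sets at this unadjusted threshold is not given here. The members' medians at 29 °C were -0.06, -0.07 and -0.04, against -0.003, -0.006 and 0.015 over all probe sets. Of the 69 differences 57, 57 and 53 lay below 0. Without Ubx replicate 3 the prepupal median was -0.0426, with 48 below 0. The members share the same arrays, so these signs are not independent. The share of all probe sets below 0 is not given here. Nor is the share called lower among the probe sets with a mean above the median probe set. At 19 °C the members' medians were -0.01, -0.01 and 0.03.

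**Figure D4:**
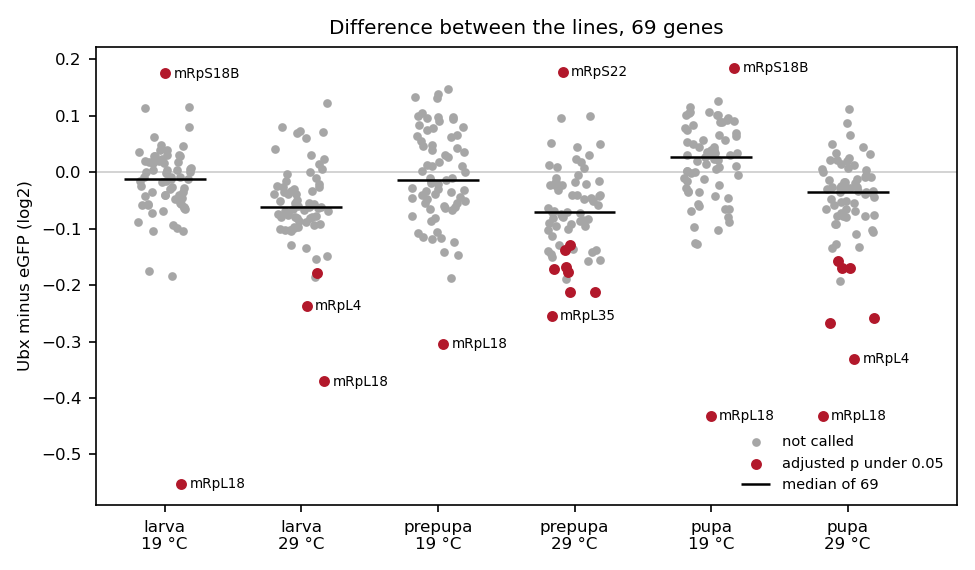
Log2 difference between the lines, Ubx minus eGFP, of each of the 69 members (points) at each stage and temperature, with members that passed the test in red and the median as a bar. mRpL18 is lowest in 5 of the 6 columns, at 19 °C as well as at 29 °C.

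In larvae at 29 °C the 3 lower members were mRpL18 (-0.37), mRpL4 (-0.24) and mRpS18A (-0.18). The other genes of the mRpS18 family, mRpS18B and mRpS18C, were not called there. The mRpS18A call was lost in 6 of 8 fits that left out 1 array, among them that without the eGFP array high in fat body markers. Of 5 wing markers only vg (-0.45) and nub (-0.39) were called between the same groups, both lower. Of 5 fat body markers only Fbp2 (-2.09) was called, also lower. The array means over the fat body markers were 4.88 to 9.19 with eGFP, the highest on replicate 3, and 4.72 to 5.71 with Ubx. The part of these markers in the result was not tested.

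In prepupae at 29 °C, mRpL35 had values of 7.06, 7.13, 6.87 and 7.11 with Ubx and 7.28, 7.24, 7.25 and 7.42 with eGFP. The groups did not overlap, and the difference was -0.25 (SE 0.05, adjusted p = 0.00048). Lower too were mRpS2 (-0.21), mRpS25 (-0.21), mRpS17 (-0.18), mRpS35 (-0.17), mRpL32 (-0.17), mRpL16 (-0.14) and mRpL13 (-0.13). The only higher member was mRpS22, with 8.76, 8.89, 8.70 and 8.84 against 8.57, 8.73, 8.64 and 8.53. Those groups overlapped; the difference was 0.18 (adjusted p = 0.00754), and it missed the threshold with quantile normalisation (0.0533). tko (-0.17) and bonsai (-0.28) were lower; at 19 °C, with the transgene off, bonsai was lower as well (-0.18).

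The prepupal count moved with the processing, from 3 when only the compared arrays were fitted to 20 lower with quantile normalisation, and it was 5 without Ubx replicate 3. Of the neighbouring functions, 15 of 74 oxidative phosphorylation genes (20.3%) were lower in prepupae with Ubx and none was higher, where 14.2% of all probe sets and 25.5% of the brighter ones were called; the lower ones included Cyt-c1 (-0.20) and RFeSP (-0.24), both of complex III. Of 13 import genes 4 were lower (30.8%), and of 41 cytoplasmic ribosomal protein genes 1 was lower and 1 higher (4.88%). The wing markers were also lower there, 4 of 5, and 2 of 6 haemocyte markers were higher. Among the latter, NimC1 (0.78) was higher at 19 °C as well (0.58). Of 5 fat body markers Apoltp was higher (0.35). The part of these markers in the result was not tested.

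In pupae at 29 °C, mRpL4 had values of 8.85, 8.81, 8.92 and 8.86 with Ubx and 9.23, 9.16, 9.11 and 9.25 with eGFP. Every Ubx array was below every eGFP array, and the difference was -0.33 (SE 0.05, adjusted p = 1.56e-05). Lower too were mRpL18 (-0.43), mRpL3 (-0.27), mRpS2 (-0.26), mRpL39 (-0.17), mRpS7 (-0.17) and mRpL16 (-0.16). Only mRpL18 and mRpL4 were called in both larvae and pupae, and only mRpL16 and mRpS2 in both prepupae and pupae. When only the compared arrays were fitted, 3 members were called. All 5 wing markers were lower with Ubx in pupae, 2 of 6 haemocyte markers were higher and 2 of 3 tracheal markers lower. Of 5 fat body markers Fbp2 was lower (-4.52). With the transgene off at 19 °C, pupae of the lines already differed in Fbp2 (-3.78) and the haemocyte marker NimC1 (0.89). The part of these markers in the result was not tested. mRpL47 was not called (-0.08, adjusted p = 0.28), while its second probe set was (-0.14, adjusted p = 0.0373).

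The same comparison at 19 °C, where the transgene was off, shows how the lines differ without it. In larvae mRpL18 was lower and mRpS18B higher (2 members, against 1.41% of all probe sets called). In prepupae mRpL18 alone was lower (against 3.67%), and in pupae mRpL18 was again lower and mRpS18B higher (against 1.99%). mRpL18, whose bacterial counterpart binds 5S ribosomal RNA, therefore differed between the lines at both temperatures in larvae and pupae. In prepupae at 29 °C its difference was -0.19 and was not called (adjusted p = 0.121). Its larval values at 19 °C were 8.42, 8.43, 8.39 and 8.42 in the Ubx line and 9.03, 8.84, 9.04 and 8.95 in the eGFP line, without overlap. The difference was -0.55 (SE 0.08, adjusted p = 8.07e-06), and it was -0.30 in prepupae and -0.43 in pupae. mRpL4 and mRpS2, called in pupae at 29 °C, also lay below 0 at 19 °C, without being called. For mRpL4 the 19 °C difference was -0.18 in larvae and -0.13 in pupae (limma adjusted p = 0.0876 and 0.358). For mRpS2 it was -0.18 and -0.10 (0.128 and 0.558). A change of the line difference with temperature was not called for either gene.

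mRpS18B in larvae at 19 °C had values of 9.31, 9.36, 9.24 and 9.28 against 9.12, 9.11, 9.17 and 9.08, again without overlap. The difference was 0.17 (adjusted p = 0.0479), and it was 0.18 in pupae. Leaving out 1 array ended this call in 6 of 8 fits in larvae and 4 of 8 in pupae, and ended the prepupal call of mRpL18 in 4 of 8.

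Whether the line difference itself changed with temperature was tested as an interaction, the difference at 29 °C minus that at 19 °C. For mRpL18 it was 0.18 in larvae, 0.11 in prepupae and -0.0004 in pupae, none of them called. In larvae 0 of 69 members were called by limma, where 0.442% of all probe sets were, and 3 had an unadjusted p under 0.05. In prepupae 5 were called (against 7.69%): mRpL35 (-0.33), mRpL32 (-0.25), mRpL16 (-0.24) and mRpL14 (-0.23) below 0, and mRpS22 (0.21) above. In pupae mRpL16 (-0.24) was the single call, against 3.36% of all probe sets.

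mRpL16, whose bacterial counterpart helps place tRNA on the large subunit, showed this interaction at both later stages. In prepupae at 19 °C the Ubx arrays read 8.45, 8.37, 8.37 and 8.36 and the eGFP arrays 8.21, 8.28, 8.34 and 8.30. At 29 °C they read 8.80, 8.84, 8.81 and 8.99 against 9.05, 8.96, 9.03 and 8.96. Ubx arrays were thus the higher ones at 19 °C and, with 1 array overlapping, the lower ones at 29 °C. The interaction had an adjusted p of 0.00528 in prepupae and 0.0101 in pupae, and 0.0715 and 0.111 when only the compared arrays were fitted; mRpL35 went from 0.0024 to 0.0612. Leaving out any 1 array kept the calls of mRpL16 and mRpL35, whereas the prepupal call of mRpS22 was lost in 11 of 16 such fits, that of mRpL32 in 8 and that of mRpL14 in 5.

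**Figure D5:**
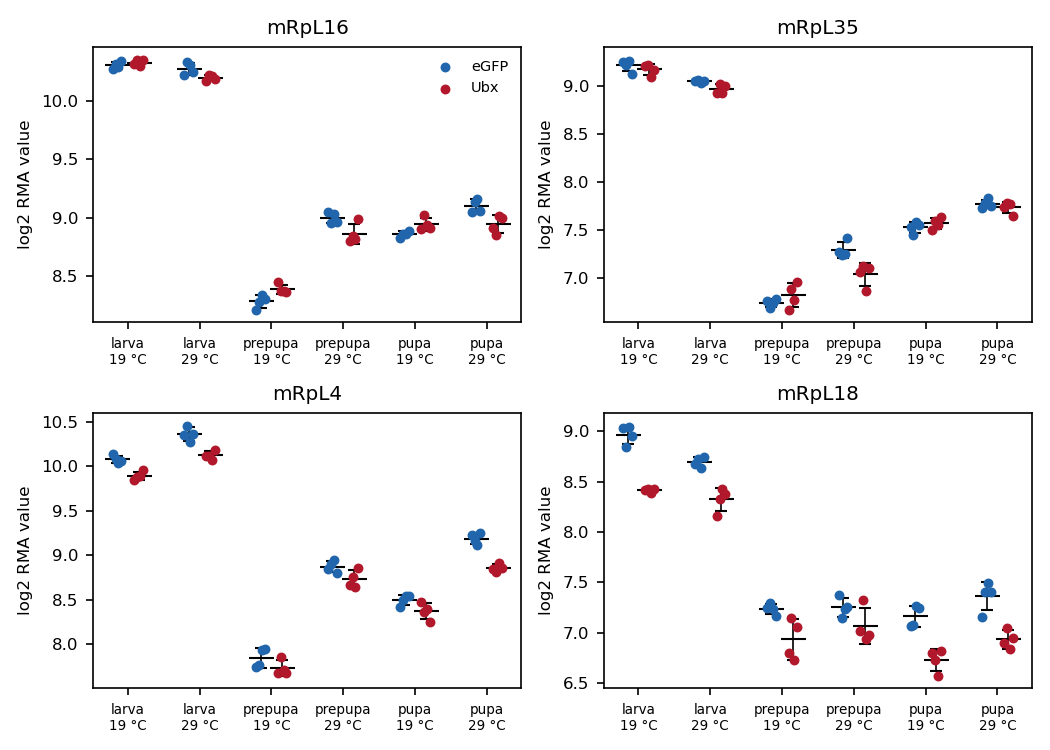
Log2 values of mRpL16, mRpL35, mRpL4 and mRpL18 on each array (points), with group means and SD (bars), by stage and temperature. mRpL18 is lower in the Ubx line at both temperatures, and mRpL16 and mRpL35 in prepupae are lower with Ubx at 29 °C only.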

How the data were processed

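Log2 values on 48 arrays were deposited by the authors as made with RMA, per the submitters' processing notes; not given in the sources used here are its version, the log base and which arrays were run together. Of 18952 probe sets, 183 controls were left out. Of the 18769 tested, 13647 had 1 gene symbol in the platform annotation, 402 several and 4720 none; the 69 members had 71 probe sets, and 2 that also name another gene were left out. All 69 symbols are unchanged in RefSeq.

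A mean per group was fitted over all arrays with limma 3.58.1 in R 4.3.3 (lmFit, eBayes; degrees of freedom: 36 residual, 5.16 prior). Two-sided tests were used, with Benjamini-Hochberg adjustment over all probe sets and calls at an adjusted p under 0.05. The script was tested on simulated data. Precision is limited by 4 arrays per group. Alternatives were other scalings, a filter on dim probe sets, averaging a gene's probe sets, only the compared arrays, a replicate block and leaving out each array.

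The members and lists were chosen with earlier results of these data known. Members are named by size of called difference, by level, by spread and as examples in a range; other genes are the most significant of each list. Promoter and protein sequences were not analysed here.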

Additional observations from a re-analysis of the deposited data

Results flagged for a closer look

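Among the members with values given per array and the members' median, 132 groups of 4 arrays were examined, and in 4 of them 1 array stood apart from the other 3; chance alone gives about 1 in 20. In prepupae at 19 °C, Ubx replicate 1 read 7.79 for mRpS22 (nearest array 7.95) and 8.45 for mRpL16 (nearest 8.37), and Ubx replicate 4 read 9.68 for mRpL28 (nearest 9.84). In larvae at 29 °C, Ubx replicate 3 read 9.54 for mRpL27 (nearest 9.62). Over all members 29 of 828 groups (3.5%) held such an array.

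The line difference changed with temperature in prepupae for mRpL35 (-0.33), mRpL32 (-0.25), mRpL16 (-0.24), mRpL14 (-0.23) and mRpS22 (0.21), and in pupae for mRpL16 (-0.24), by the limma interaction test. The 5 prepupal calls are 7.25% of the members, where 7.69% of all probe sets were called, and those of mRpS22, mRpL32 and mRpL14 were lost when some single arrays were left out.

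A probe set that names both CG33155 and mRpL53, and is therefore outside the comparisons, was higher with Ubx at 29 °C by 0.28 in larvae, 0.41 in prepupae and 0.24 in pupae. It was also higher at 19 °C, by 0.37, 0.71 and 0.43, and it cannot be assigned to either gene.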

How the results depend on the processing

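Differences between stages and temperatures depended most on the scaling. Shares of all probe sets called under the other scalings are not given here, so the members' counts under them stand without that background. Under quantile normalisation over all arrays the median member difference from larva to prepupa became -0.52 at 19 °C and -0.53 at 29 °C (centring: -1.48 at 29 °C), that from prepupa to pupa 0.0113 and -0.0564 (centring: 0.55 and 0.53), and that between temperatures 0.21, 0.15 and 0.15 in larvae, prepupae and pupae (centring: 0.15, 0.20 and 0.26), with 37 members called in pupae (34 higher, 3 lower). Centring turned mRpS5 from larva to prepupa at 29 °C to -0.0013. For the line difference at 29 °C, quantile normalisation gave 5 calls in larvae and 20 in prepupae, and centring 4 in prepupae and a median of -0.0771 in pupae (-0.02 with quantile normalisation, under which 7 members changed sign). Quantile normalisation gave 10 interaction calls and a median of -0.10 in prepupae; centring gave 3 calls in prepupae, a median of -0.11 in pupae and 1 call at 19 °C in larvae. Fitting only the compared arrays, with fewer samples to estimate the spread, left 3 calls in prepupae and 3 in pupae at 29 °C, 1, 0 and 1 at 19 °C, and 0 interaction calls in prepupae and in pupae. The filter on dim probe sets, which tests fewer of them, gave 15 calls in prepupae at 29 °C and 3 at 19 °C. Elsewhere the cause was not tested.

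Leaving out 1 array gave 5 to 11 calls in prepupae and 2 to 3 in larvae at 29 °C, 1 to 2 in larvae, 0 to 2 in prepupae and 1 to 2 in pupae at 19 °C, and 2 to 7 prepupal interaction calls. Of the values of named members, 530 kept their call when 1 array was left out and 46 lost it. Replicate numbers did not pair the samples: 7 of 24 same-numbered pairs had a correlation over 0.1 (range -0.15 to 0.36), and 6 of 24 Ubx arrays correlated best with their own number. With the replicate number as a block, 5 members were called in prepupae at 29 °C, 1 in larvae at 19 °C and 2 for the prepupal interaction.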

Other observations

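The probe set that names both CG34316 and mRpS10 was not called between the lines at 29 °C at any stage, with differences of -0.13 in larvae, -0.07 in prepupae and -0.17 in pupae. The second probe set of mRpS11 differed by -0.36 from larva to prepupa at 29 °C.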
